A study of Mus musculus with 12 samples.

Results

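The 25 genes described here make up the GABA machinery of the mouse lateral septum: the enzymes that make and break down GABA, its transporters, 11 subunits of the GABA-A receptor, both subunits of the GABA-B receptor, 2 chloride transporters and 5 proteins that place or assist GABA-A receptors at the synapse. They were chosen by gene symbol and not by a cut on their values, though with earlier results of these data known. The table held 54532 genes in 12 bulk RNA-seq libraries. All 25 passed the filter of at least 1 FPKM in at least 6 libraries, as did 13345 genes in all. FPKM is fragments scaled to gene length and to the reads counted in the library. Levels of different genes are set side by side on that scale, so their order and shares depend on the length given for each gene. That length was 13838 bases for Gabrb1 and 3924 bases for Gabra3, for example. It need not be the length of the transcripts present, which was not tested.

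The tissue was the lateral septum of WT mice at day 3 after an injection, in 6 libraries of the CFA group and 6 of the saline group. CFA commonly stands for complete Freund's adjuvant, which is used in pain research to cause lasting inflammation where it is injected, and saline served as its control. The labels give no strain, sex, age or site of injection, and do not say whether each library came from a separate animal or from pooled tissue. The p-values below are therefore set against the spread among these libraries, some of which may be technical. Each library held between 33.6 and 39.2 M reads recovered from the FPKM steps, with 37.3 ± 1.44 M in CFA and 35.9 ± 1.63 M in saline libraries (SD, n = 6 each).

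GABA is the main inhibitory transmitter of the forebrain, and most neurons of the lateral septum release it. It opens the GABA-A receptor, a chloride channel built from 5 subunits, usually of the alpha and beta classes with a gamma or delta subunit, and it activates the GABA-B receptor, a dimer coupled to G proteins. Which alpha and other subunits are present sets where on the neuron the channel sits, how fast it closes and which drugs act on it. The direction of the chloride current depends on transporters that load chloride into the cell or remove it.

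Markers of the labelled tissue were present in every library. All 9 lateral septum markers passed the filter, with summed levels of 194 to 314 FPKM in CFA and 216 to 299 FPKM in saline libraries; Zic1, a transcription factor of septal neurons, lay between 75.4 and 132 FPKM in CFA and between 82.5 and 116 FPKM in saline libraries. Markers of neighbouring regions were present in unequal amounts, and whether their RNA came from those regions was not tested. Of 15 striatal markers 13 were tested, and their sum ran from 162 to 418 FPKM in CFA and from 162 to 252 FPKM in saline libraries, highest in CFA 1 and CFA 6; Ido1 and Sh3rf2 were under 0.5 FPKM. Slc17a7, the vesicular glutamate transporter of cortical and hippocampal neurons, was 2.38 to 5.22 FPKM in 4 libraries (CFA 1, CFA 2, CFA 4 and saline 4) and 18.5 to 78.7 FPKM in the other 8. Saline 3 and saline 5 held 2259 and 701 FPKM of the choroid plexus gene Ttr, which was at most 44.5 FPKM in CFA libraries. Xist, the RNA made by the inactive X chromosome of female cells, was 34.9 to 60.7 FPKM in 5 of 6 CFA libraries and 37.3 to 40.2 FPKM in 2 of 6 saline libraries, and under 1 FPKM in the others, so the sex of the tissue was unequal between the groups. In bulk tissue, fewer cells of a type and less RNA per cell cannot be told apart.

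None of the 25 genes differed between CFA and saline at an adjusted p under 0.05 by limma, where 4 of 13345 genes tested did (0.0300%). Adjusted p-values of the GABA genes ran from 0.583 to 0.978. At an unadjusted p under 0.05, 2 of the 25 were lower in CFA (Slc12a5 and Gabrb2), against 609 of all genes (4.56%), and 0 were higher, against 415 of all genes (3.11%). The log2 fold change was below 0 for 17 of the 25, against 52.0% of all genes, and its median was -0.06 for the GABA genes and -0.00427 for all genes. For 0 of the 25 did the groups fail to overlap, against 66 of all genes (0.495%). The intervals bound what could have gone unseen. For 21 of the 25 the 95% interval lay within 0.4 of 0 on the log2 scale, and the 4 that went beyond were those of Gabra2, Gabrd, Gabrq and Gabre.

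**Figure D1:**
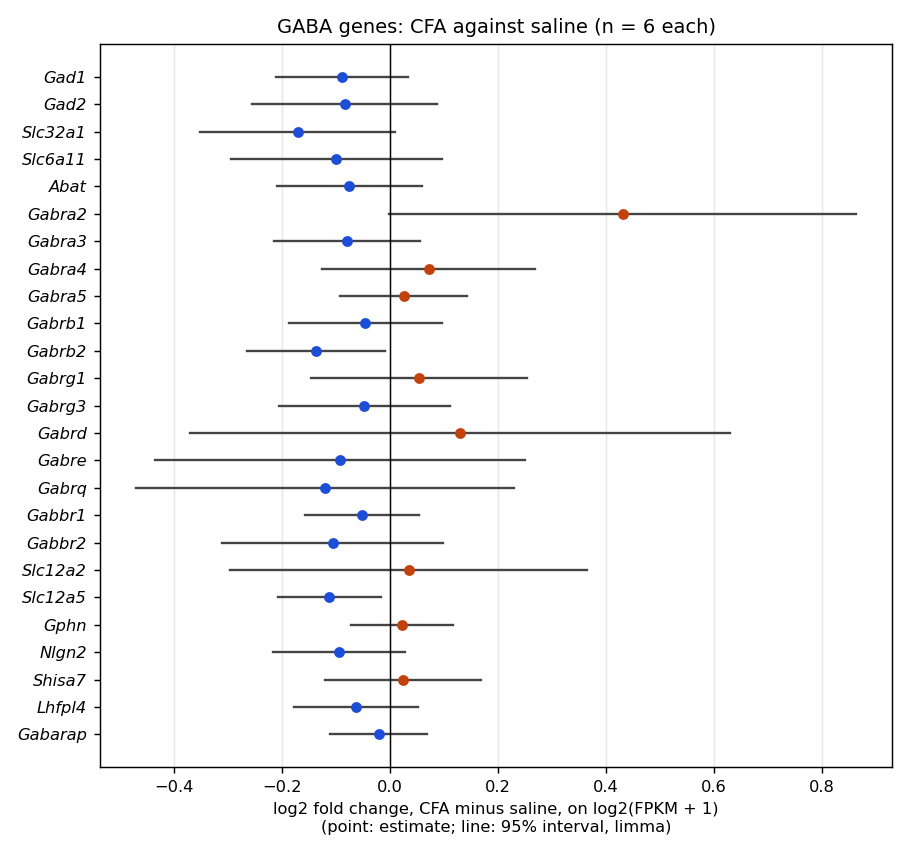
Log2 fold change of each GABA gene (x axis, CFA minus saline on log2(FPKM + 1); points are limma estimates, lines 95% intervals, n = 6 libraries each), in order of role from synthesis at the top to synapse partners at the bottom. Estimates below 0 (blue) outnumber those above 0 (orange) by 17 to 8; the intervals of Gabrb2 and Slc12a5 end below 0, but neither passed adjustment.

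The genes that make and package GABA were among the most abundant of all genes tested. Gad2 and Gad1 encode the 2 forms of glutamate decarboxylase, which makes GABA from glutamate, and Slc32a1 encodes the transporter that loads GABA into synaptic vesicles. Over the 12 libraries Gad2 averaged 159 ± 16.6 FPKM, Slc32a1 139 ± 16.5 FPKM and Gad1 117 ± 8.54 FPKM (SD, n = 12), and each lay above 98.2% or more of all tested genes by mean level. Gad2 exceeded Slc32a1 in 11 of 12 libraries.

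Gad2 had a lowest value of 139, a median of 145 and a highest of 187 FPKM in CFA libraries, and 141, 167 and 182 FPKM in saline libraries. CFA 1 and CFA 2 were high, and the 4 other CFA libraries lay in a narrow band near the bottom of the saline range. The log2 fold change was -0.08 (SE 0.08, limma adjusted p = 0.851). Gad1 had 102, 114 and 125 FPKM in CFA and 110, 121 and 129 FPKM in saline libraries as lowest, median and highest values, with a log2 fold change of -0.09 (SE 0.06, limma adjusted p = 0.767). The ranges overlapped over most of their length.

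Slc32a1 ran from 112 through a median of 130 to 159 FPKM in CFA libraries, and from 133 through 146 to 161 FPKM in saline libraries. CFA 3, CFA 5 and CFA 6 lay below all 6 saline libraries, CFA 4 lay near the top of the saline range, and the groups overlapped. The log2 fold change of -0.17 (SE 0.08, 95% interval -0.35 to 0.01) was the most negative of the 25, with a limma adjusted p of 0.677.

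Slc6a11 encodes a plasma membrane transporter that takes up GABA, mainly in astrocytes, and Abat encodes the mitochondrial transaminase that breaks GABA down. They had almost the same mean level, 77.4 ± 9.73 and 77.2 ± 6.11 FPKM (SD, n = 12), and Slc6a11 was the higher in 4 of 12 libraries. Slc6a11 had 64.4, 71.0 and 98.5 FPKM as lowest, median and highest values in CFA libraries, against 73.7, 78.9 and 89.0 FPKM in saline libraries. In CFA 1, CFA 3, CFA 5 and CFA 6 it lay below all saline libraries, and in CFA 4 above them. Abat had 66.5, 74.4 and 83.7 FPKM in CFA and 71.2, 79.8 and 86.2 FPKM in saline libraries. Neither differed by limma (Slc6a11 log2 fold change -0.10, SE 0.09, adjusted p = 0.847; Abat -0.08, SE 0.06, adjusted p = 0.822).

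**Figure D2:**
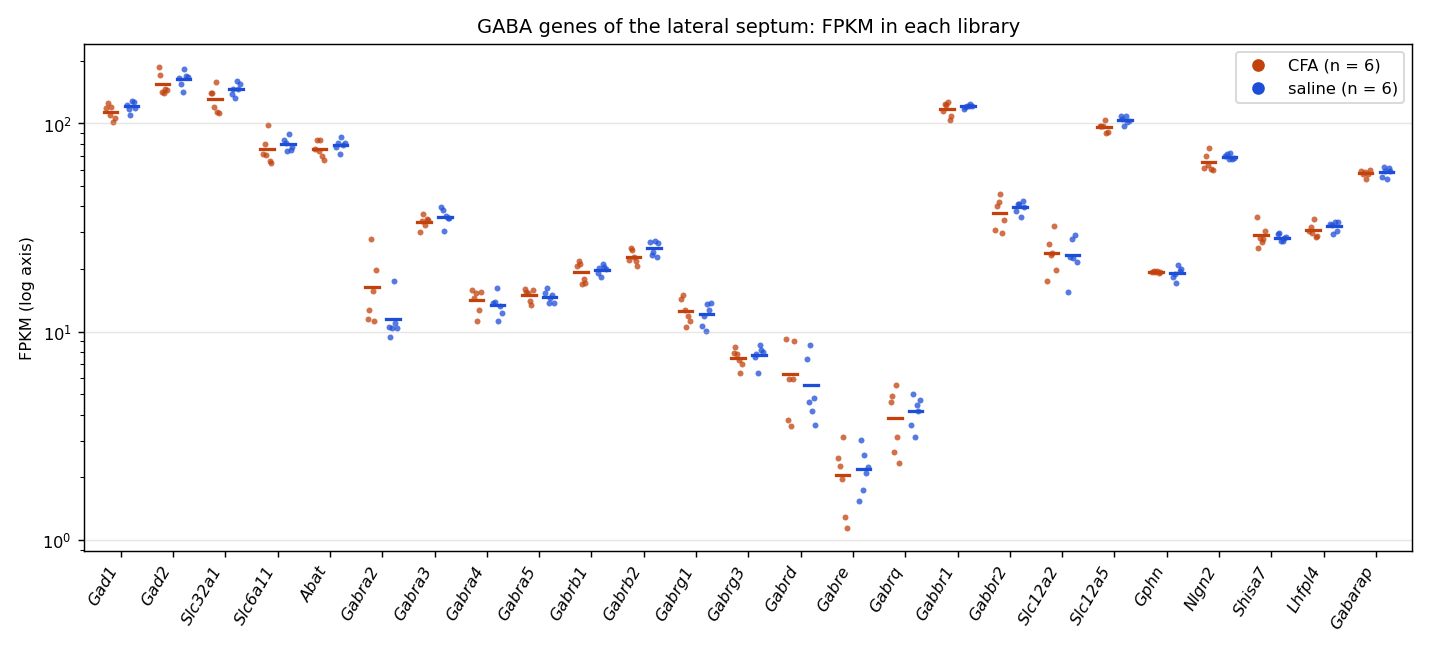
FPKM of the 25 GABA genes in each library on a log axis, with CFA to the left of saline for each gene; points are libraries and short lines group means (n = 6 each). Means span from 159 FPKM for Gad2 to 2.12 FPKM for Gabre, and the 2 groups overlap for all 25 genes.

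Among the 11 GABA-A subunit genes, the alpha-3 gene Gabra3 was the most abundant at 34.7 ± 2.83 FPKM, followed by Gabrb2 at 24.0 ± 2.14, Gabrb1 at 19.6 ± 1.63 and Gabra5 at 14.9 ± 0.983 FPKM (SD, n = 12). Each of these 4 exceeded the next in all 12 libraries except Gabra5, which exceeded Gabra2 in 8. Gabra2, Gabra4 and Gabrg1 overlapped, at 14.0 ± 5.39, 13.8 ± 1.72 and 12.4 ± 1.58 FPKM. Gabrg1 then exceeded Gabrg3 (7.62 ± 0.756 FPKM) in 12 of 12 libraries. Gabrd at 5.88 ± 2.17 and Gabrq at 4.02 ± 1.02 FPKM overlapped, and Gabre was the lowest of all 25 genes at 2.12 ± 0.626 FPKM. The alpha-3 subunit is known from monoamine neurons and the thalamic reticular nucleus, while alpha-5 and delta are known for receptors outside the synapse.

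As shares of the summed FPKM of these 11 genes, Gabra3 made up 22.0 ± 1.77% in CFA and 23.4 ± 1.54% in saline libraries (SD, n = 6 each). Gabrb2 made up 14.9 ± 1.04% in CFA and 16.6 ± 1.04% in saline libraries, and Gabra2 10.6 ± 3.44% in CFA and 7.55 ± 1.67% in saline libraries. The sum itself was 154 ± 11.2 FPKM in CFA and 152 ± 6.11 FPKM in saline libraries, so the mix could be compared at a like total. These shares leave out 3 further GABA-A subunit genes that passed the filter, which are not among the 25 and held 43.5 ± 1.39% of the total of all 14 (SD, n = 12). The shares are a description without a test, and like the order of the genes they depend on the gene lengths used.

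**Figure D3:**
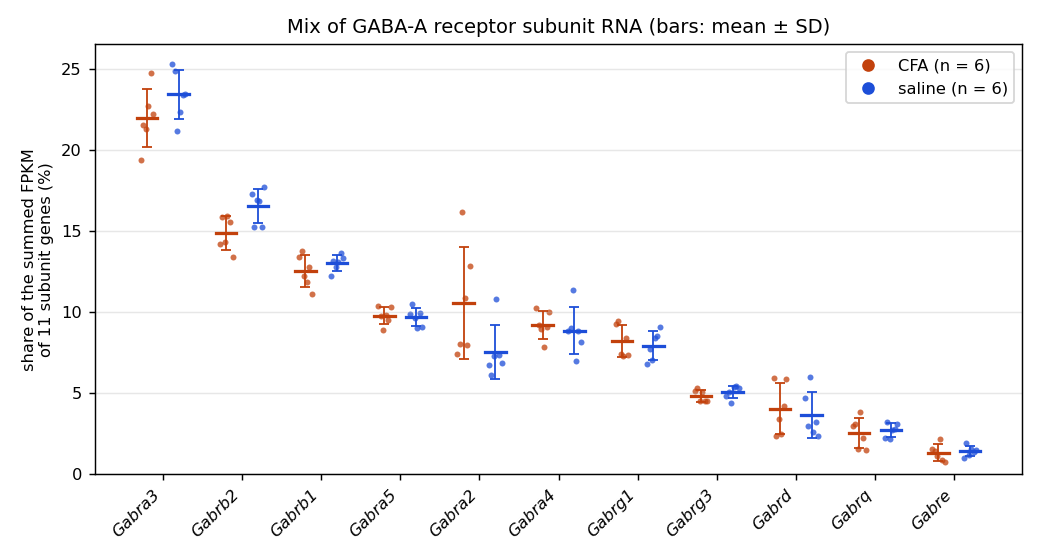
Share of each GABA-A subunit gene in the summed FPKM of the 11 subunit genes (y axis, percent), CFA left of saline; points are libraries, bars mean ± SD (n = 6 each). Gabra3 leads in both groups, and Gabra2 has the widest spread, from 6.15% to 16.2% over the 12 libraries.

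Within the alpha class of the 4 genes Gabra2 to Gabra5, Gabra3 held 42.7 ± 3.56% in CFA and 47.3 ± 2.73% in saline libraries, and Gabra2 20.2 ± 5.40% in CFA and 15.3 ± 3.47% in saline libraries (SD, n = 6 each). Of the 2 beta genes, Gabrb2 held 54.3 ± 1.91% in CFA and 55.9 ± 2.22% in saline libraries. Of the 2 gamma genes, Gabrg1 held 62.7 ± 2.25% in CFA and 60.9 ± 1.52% in saline libraries. The gamma-1 subunit is known from the amygdala, septum and hypothalamus.

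Gabrb2 was the subunit gene with the smallest p. Its lowest, median and highest values were 20.7, 22.5 and 25.1 FPKM in CFA and 22.9, 25.4 and 27.1 FPKM in saline libraries. Saline 1, saline 4 and saline 6 lay above every CFA library, and the groups overlapped in between. The log2 fold change was -0.14 (SE 0.06, 95% interval -0.26 to -0.01; limma unadjusted p = 0.0375, adjusted p = 0.632). It was -0.0759 with the mean of the pan-neuronal markers as a covariate and -0.0527 with Xist as a covariate. In the 7 libraries with Xist only, 5 of CFA and 2 of saline, it was -0.0427. Over all settings it ran from -0.18 to -0.0427, and with 1 library left out from -0.16 to -0.11, so it moved in both directions. Gabra3, the leading subunit gene, had 30.0, 34.2 and 36.6 FPKM in CFA and 30.3, 35.7 and 39.6 FPKM in saline libraries (log2 fold change -0.08, SE 0.06, limma adjusted p = 0.813). The CFA range lay almost wholly inside the saline range.

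Gabrg1, Gabra2, Gabra4 and Gabrb1 lie in a cluster on chromosome 5 (GRCm38), in that order. Gabra2 spans 70957597 to 71095849 on the minus strand. Gabra4 (71569749 to 71658308, minus strand) and Gabrb1 (71658113 to 72149037, plus strand) start head to head, and their models overlap by 196 bases. Strand use in counting is not given in the sources used here, so reads in that overlap cannot be assigned to either gene.

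Gabra2 varied more than its neighbours. In CFA libraries it had 11.5, 12.8, 27.8, 15.7, 11.3 and 19.8 FPKM (CFA 1 to CFA 6), and in saline libraries 10.6, 9.46, 10.4, 17.5, 11.0 and 10.4 FPKM (saline 1 to saline 6). CFA 3, CFA 6, saline 4 and CFA 4 stood above the other 8 libraries, all of which were under 13 FPKM, so high values occurred in both groups. The log2 fold change of 0.43 was the most positive of the 25, with an interval that includes 0 (SE 0.20, 95% interval -0.00193 to 0.86; limma unadjusted p = 0.0509, adjusted p = 0.653). Without CFA 3 it was 0.27, and with Xist as a covariate 0.70 (limma adjusted p = 0.778 and 0.528).

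The highest Gabra2 value was 2.94 times the lowest, against 1.45 times for Gabra4, 1.49 times for Gabrg1 and 1.28 times for Gabrb1. Gabra2 did not track the other 3 genes of the cluster over the 12 libraries: Pearson's r was 0.06 with Gabrg1, 0.05 with Gabra4 and -0.00934 with Gabrb1, and Spearman's rho 0.09, 0.02 and 0.15. Adjusted over 300 pairs of the 25 genes, permutation p-values were 0.944, 0.949 and 0.997 for r and 0.913, 0.986 and 0.823 for rho. Without CFA 3 and CFA 6, r was 0.17, -0.61 and -0.01 with the same genes. Nor did its high libraries share a level of Slc17a7, which was 77.2 FPKM in CFA 3 and 78.7 FPKM in CFA 6 but 5.22 FPKM in CFA 4 and 2.38 FPKM in saline 4. The 5 libraries with 12.1 to 31.8 FPKM of Cwc22, a splicing factor gene, held 10.4 to 11.5 FPKM of Gabra2, and the 7 libraries with 2.01 to 2.67 FPKM of Cwc22 held 9.46 to 27.8 FPKM. All 4 libraries with high Gabra2 were thus among those with low Cwc22. Gabra2 RNA is known to differ between inbred mouse strains; strain or substrain as a part of this spread was not tested.

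**Figure D4:**
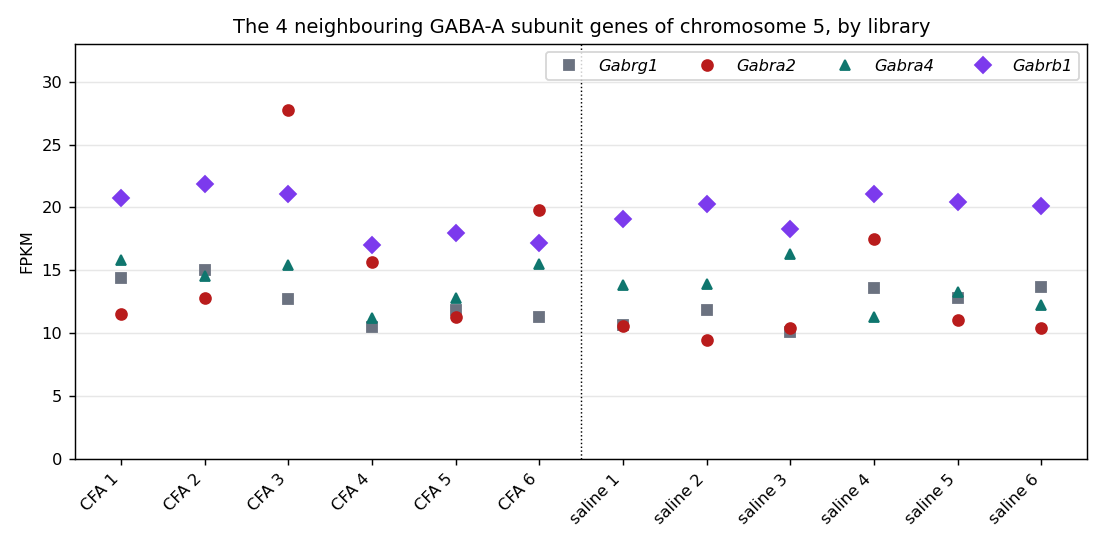
FPKM (y axis) of the 4 neighbouring subunit genes of the chromosome 5 cluster in each library, CFA to the left of the dotted line and saline to the right. Gabra2 (red circles) reaches 27.8 FPKM in CFA 3, 19.8 FPKM in CFA 6 and 17.5 FPKM in saline 4, while Gabrb1 stays between 17.0 and 21.9 FPKM.

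The remaining alpha, beta and gamma genes varied less. Gabra4 had a median of 15.0 FPKM in CFA and 13.5 FPKM in saline libraries (log2 fold change 0.07, SE 0.09, limma adjusted p = 0.901). Gabra5 had a median of 15.4 FPKM in CFA and 14.8 FPKM in saline libraries (0.03, SE 0.05, limma adjusted p = 0.950). Its model overlaps another subunit gene on the opposite strand over 90368 bases, so a part of its reads could belong to that gene. Gabrb1, with medians of 19.4 FPKM in CFA and 20.2 FPKM in saline libraries, Gabrg1, with 12.3 FPKM in each group, and Gabrg3, with 7.56 FPKM in CFA and 7.92 FPKM in saline libraries, had limma adjusted p-values of 0.919, 0.937 and 0.928. For each of these 5 genes the ranges of the groups overlapped.

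Gabrd encodes the delta subunit, which forms receptors outside the synapse, often with alpha-4. It had 9.20, 3.78, 5.91, 3.54, 5.95 and 9.05 FPKM in CFA 1 to CFA 6, and 7.39, 4.58, 8.61, 4.19, 4.82 and 3.58 FPKM in saline 1 to saline 6. The highest library held 2.59 times the lowest, and 2 libraries of each group were above 7 FPKM. The groups overlapped over nearly their whole range, and the log2 fold change was 0.13 (SE 0.23, 95% interval -0.37 to 0.63; limma adjusted p = 0.940). Leaving out 1 library gave 0.02 (without CFA 1) to 0.25 (without saline 3). The striatal marker sum was highest in CFA 1 and CFA 6, the libraries with the highest Gabrd of the CFA group, but saline 3, with 8.61 FPKM of Gabrd, was not high in it.

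Gabre and Gabrq encode epsilon and theta, subunits known mainly from the hypothalamus and from monoamine nuclei. They flank Gabra3 in a cluster on the X chromosome, Gabre at 72255999 to 72274803 on the minus strand and Gabrq at 72825178 to 72842602 on the plus strand (GRCm38). Gabre had a lowest, median and highest value of 1.14, 2.12 and 3.13 FPKM in CFA and 1.55, 2.16 and 3.01 FPKM in saline libraries. Gabrq had 2.35, 3.86 and 5.54 FPKM in CFA and 3.13, 4.31 and 5.01 FPKM in saline libraries. CFA 5 and CFA 6 were the lowest of all 12 libraries for Gabre, CFA 6 the lowest for Gabrq, and CFA 4 the highest for both. The CFA range enclosed the saline range for both genes (log2 fold change -0.09, SE 0.16 for Gabre and -0.12, SE 0.16 for Gabrq; limma adjusted p = 0.937 and 0.910). With Xist as a covariate, the log2 fold changes of the X-linked genes were -0.0669 for Gabra3, -0.16 for Gabre and -0.26 for Gabrq, at limma adjusted p-values of 0.911 or more.

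These 2 genes moved together over the libraries. Pearson's r was 0.86 and Spearman's rho 0.89 over 12 libraries (permutation p adjusted over 300 pairs, 0.0114 and 0.0162), with r of 0.86 within CFA and 0.87 within saline libraries, and 0.78 without CFA 5 and CFA 6, the libraries farthest from the median of Gabre. Gabrq also went with Slc32a1 (r = 0.87, rho = 0.79; adjusted permutation p = 0.0114 and 0.0406), with r of 0.82 without CFA 5 and CFA 6. For Gabre and Slc32a1, r was 0.83 and rho 0.83 (adjusted permutation p = 0.0166 and 0.0318), and r without those libraries was 0.61 (permutation p = 0.0625). Within CFA libraries r of this pair was 0.96, and within saline libraries 0.66 (exact permutation p = 0.00278 and 0.154). Their promoters, from RefSeq (GRCm38.p6), are shown because the genes are transcribed from separate starts in the same cluster: chrX:72274672-72274971 on the minus strand for Gabre and chrX:72824928-72825227 on the plus strand for Gabrq, each 250 bases before and 50 after the start. They are written 5′ to 3′, with capitals for the GC box GGGCGG or its reverse complement CCGCCC.
Gabre: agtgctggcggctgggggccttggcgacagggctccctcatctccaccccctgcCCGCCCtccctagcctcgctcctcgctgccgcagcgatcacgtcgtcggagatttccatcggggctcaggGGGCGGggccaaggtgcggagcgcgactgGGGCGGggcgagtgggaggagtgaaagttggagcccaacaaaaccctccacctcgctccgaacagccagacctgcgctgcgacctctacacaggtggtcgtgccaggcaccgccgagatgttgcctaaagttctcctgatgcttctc
Gabrq: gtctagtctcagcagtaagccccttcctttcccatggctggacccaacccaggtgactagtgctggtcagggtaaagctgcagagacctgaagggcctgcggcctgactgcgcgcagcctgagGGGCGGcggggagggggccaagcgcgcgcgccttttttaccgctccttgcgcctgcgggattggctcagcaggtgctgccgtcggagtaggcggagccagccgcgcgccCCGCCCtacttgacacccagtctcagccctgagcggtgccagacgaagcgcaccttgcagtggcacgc
The Gabre promoter holds 3 GC boxes and 24 CG pairs, and that of Gabrq 2 GC boxes and 23 CG pairs, where the median of 32851 promoters of the same length is 7 CG pairs. A GC box occurred in 35.7% of all these promoters and in 15 of the 22 GABA genes with an entry. TATAAA or TTTATA occurred in neither window, in 13.6% of all promoters and in 3 of the 22 genes. TAATTA, the core that many homeobox proteins bind, occurred in 5.29% of all promoters and in 1 of the 22 genes. These matches describe the letters of the windows only.

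The GABA-B receptor genes differed in level by about 3 to 1. Gabbr1, whose product binds GABA, averaged 119 ± 6.67 FPKM, and Gabbr2, whose product couples the dimer to G proteins, 38.4 ± 4.80 FPKM (SD, n = 12). Gabbr1 had 104, 118 and 127 FPKM as lowest, median and highest values in CFA and 118, 122 and 124 FPKM in saline libraries. The saline libraries lay close together inside the wider CFA range, with CFA 5 and CFA 6 at its bottom. Gabbr2 had 29.9, 37.2 and 45.7 FPKM in CFA and 35.5, 40.3 and 42.3 FPKM in saline libraries, again with the CFA range around the saline range. The log2 fold changes were -0.05 (SE 0.05) for Gabbr1 and -0.11 (SE 0.10) for Gabbr2, with limma adjusted p-values of 0.850 and 0.842.

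Slc12a5 encodes KCC2, which removes chloride from neurons, and Slc12a2 encodes NKCC1, which loads chloride into neurons and glia. Slc12a5 had 89.6, 97.1 and 104 FPKM as lowest, median and highest values in CFA and 96.9, 104 and 109 FPKM in saline libraries. CFA 5 and CFA 6 lay below the saline range, and 5 of 6 saline libraries lay above all CFA libraries but CFA 4. The log2 fold change of -0.11 had the smallest p of the 25 genes (SE 0.04, 95% interval -0.21 to -0.02; limma unadjusted p = 0.0247, adjusted p = 0.583). The mean of 12 pan-neuronal markers on log2(FPKM + 1) values lay at 6.25 ± 0.0561 in CFA and 6.30 ± 0.0623 in saline libraries (SD, n = 6 each), and with that mean as a covariate the log2 fold change of Slc12a5 was -0.0871 (limma adjusted p = 0.848). With Xist as a covariate it was -0.10.

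Slc12a2 had 17.5, 23.6 and 32.3 FPKM in CFA and 15.5, 22.8 and 29.2 FPKM in saline libraries as lowest, median and highest values (log2 fold change 0.03, SE 0.15, limma adjusted p = 0.978). Its highest value was 2.08 times its lowest, and the groups covered nearly the same range. The libraries with the least oligodendrocyte marker RNA, saline 1 and CFA 1, also had the least Slc12a2. Over 12 libraries r with the mean of the 6 oligodendrocyte markers was 0.79 and rho 0.71 (permutation p adjusted over 25 genes, 0.0522 and 0.281). Without those 2 libraries r was 0.45 (permutation p = 0.194), over a narrower range of the markers.

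The 5 synapse partners varied little, with highest values 1.14 to 1.40 times the lowest. Nlgn2, the adhesion protein of inhibitory synapses, had 59.7, 62.3 and 75.9 FPKM as lowest, median and highest values in CFA and 67.3, 69.0 and 72.2 FPKM in saline libraries. In CFA 1, CFA 3, CFA 5 and CFA 6 it lay below all saline libraries and in CFA 4 above them (log2 fold change -0.09, SE 0.06, limma adjusted p = 0.759). Lhfpl4, which links the receptor to Nlgn2, had 28.6, 30.1 and 34.7 FPKM in CFA and 29.3, 32.6 and 33.8 FPKM in saline libraries (-0.06, SE 0.05, limma adjusted p = 0.828). The groups overlapped for both genes.

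Gphn encodes gephyrin, the scaffold under inhibitory synapses, and lay between 19.1 and 19.7 FPKM in all 6 CFA libraries, inside the saline range of 17.2 to 20.8 FPKM (log2 fold change 0.02, SE 0.04, limma adjusted p = 0.944). Shisa7, an auxiliary subunit of GABA-A receptors, had medians of 27.9 FPKM in CFA and 28.3 FPKM in saline libraries, with CFA 1 high at 35.5 FPKM (0.02, SE 0.07, limma adjusted p = 0.963). Gabarap, which helps bring receptors to the membrane, had medians of 57.7 FPKM in CFA and 59.3 FPKM in saline libraries (-0.02, SE 0.04, limma adjusted p = 0.944).

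A ratio of 2 genes within a library does not depend on how the library was scaled. Of 5 ratios tested, 0 differed between the groups by the exact two-sided permutation test over 924 assignments of the libraries, whose smallest possible p is 0.00216. The ratio of Gad1 to Gad2 was 0.737 in CFA and 0.740 in saline libraries (geometric means; exact p = 0.944), and that of Gabbr1 to Gabbr2 3.18 in CFA and 3.06 in saline libraries (exact p = 0.457). The ratio of Slc12a5 to Slc12a2 was 4.09 in CFA and 4.54 in saline libraries (exact p = 0.485). Its ranges were 2.77 to 5.57 in CFA and 3.48 to 7.00 in saline libraries. In bulk tissue Slc12a2 RNA can come from neurons and glia, so this ratio is no measure of chloride balance in neurons. The ratio of Gabrb2 to Gabrb1 was 1.19 in CFA and 1.27 in saline libraries (exact p = 0.197), and that of Gabrd to Gabra4 0.413 in CFA and 0.393 in saline libraries (exact p = 0.784). The adjusted p over the 5 exact tests was 0.808 or more.

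The GABA genes were also compared with each other from library to library. Of 300 pairs of the 25 genes, 184 had a positive r, with a median of 0.16 over all 300, and 33 correlated at an adjusted permutation p under 0.05 by Pearson's r and 23 by both Pearson's r and Spearman's rho, and 32 of the 33 were positive. Without the 2 libraries farthest from the median, 25 of the 33 kept a permutation p under 0.05, as did each pair named next. An r of 0.8 or more in either direction was found for 24 of the 300 pairs (8%), against 0.57% of all pairs of the genes tested, many of which are at lower levels; the part of level and of tissue mix in this was not tested. The closest pair was Slc6a11 and Nlgn2 (r = 0.95, rho = 0.97; adjusted permutation p = 0.0015 and 0.003; r = 0.97 within CFA and 0.94 within saline libraries). Slc32a1 and Abat had r = 0.90 and rho = 0.90 (adjusted permutation p = 0.00700 and 0.0162), with 0.90 within CFA and 0.94 within saline libraries. Gabrb1 and Gabrg1, the outer genes of the chromosome 5 cluster, had r = 0.81 and rho = 0.80 (adjusted permutation p = 0.0215 and 0.0369), with 0.93 within CFA and 0.90 within saline libraries. The single negative pair was Abat and Gabrd (r = -0.80, rho = -0.80; adjusted permutation p = 0.0269 and 0.0406; r = -0.79 within CFA and -0.84 within saline libraries).

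Each of the 25 genes was set against the means of the striatal, lateral septum and astrocyte markers, 75 relations in all. Of these, 8 passed adjustment by Pearson's r, each at an adjusted permutation p of 0.0452, and 0 passed by Spearman's rho as well, whose adjusted permutation p was 0.103 to 0.298 for these 8. Abat, Gabre, Slc32a1, Gabbr1 and Gad1 went with the lateral septum markers (r = 0.79, 0.78, 0.78, 0.77 and 0.76; rho = 0.74, 0.69, 0.76, 0.54 and 0.79). The 2 libraries with the lowest lateral septum mean were CFA 6 and CFA 5, at 3.75 and 3.83 on the log2(FPKM + 1) scale, against 3.89 to 4.23 in the other 10. Without them r was between 0.35 for Gabbr1 and 0.49 for Abat, at permutation p-values of 0.317 and 0.151. Leaving out extremes also narrows the range of the list mean, so a lower r does not show that the relations rest on them. Within saline libraries r was 0.88 for Gabbr1 (exact permutation p = 0.0444). It was 0.62 for Slc32a1, 0.59 for Gabre, 0.45 for Abat and 0.36 for Gad1 (exact permutation p of 0.178 to 0.499). Within CFA libraries, which hold both, r ran from 0.79 for Gabbr1 to 0.91 for Gad1. The group means of this list were 4.00 ± 0.174 in CFA and 4.10 ± 0.122 in saline libraries (SD, n = 6 each), and its part in the values of Slc32a1, Gad1 and Abat in the 2 groups was not tested.

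With the striatal markers, Gabbr2 had r = -0.80 (rho -0.64), Shisa7 r = 0.79 (rho 0.55) and Gabrd r = 0.75 (rho 0.77). Without CFA 1 and CFA 6, the libraries farthest from the median, r was -0.70 for Gabbr2 (permutation p = 0.0276). It was 0.31 for Shisa7 (p = 0.376 by permutation) and 0.52 for Gabrd (p = 0.118 by permutation), over a narrower range of the markers. The relations of Shisa7 and Gabrd were thus not shown without those libraries. Within CFA libraries r was -0.82 for Gabbr2, 0.92 for Shisa7 and 0.93 for Gabrd, and within saline libraries -0.50, 0.17 and 0.44 for the same genes. The mean of the striatal list was 3.58 ± 0.668 in CFA and 3.17 ± 0.311 in saline libraries (SD, n = 6 each, log2(FPKM + 1)). With it as a covariate the limma log2 fold change was -0.15 for Gabrd and 0.00554 for Gabbr2, the reverse of the signs given above. The excitatory markers split the libraries into 2 clusters, so r was computed within the 8 libraries with high Slc17a7, where 0 of 25 relations passed an adjusted exact permutation p of 0.05.

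**Figure D5:**
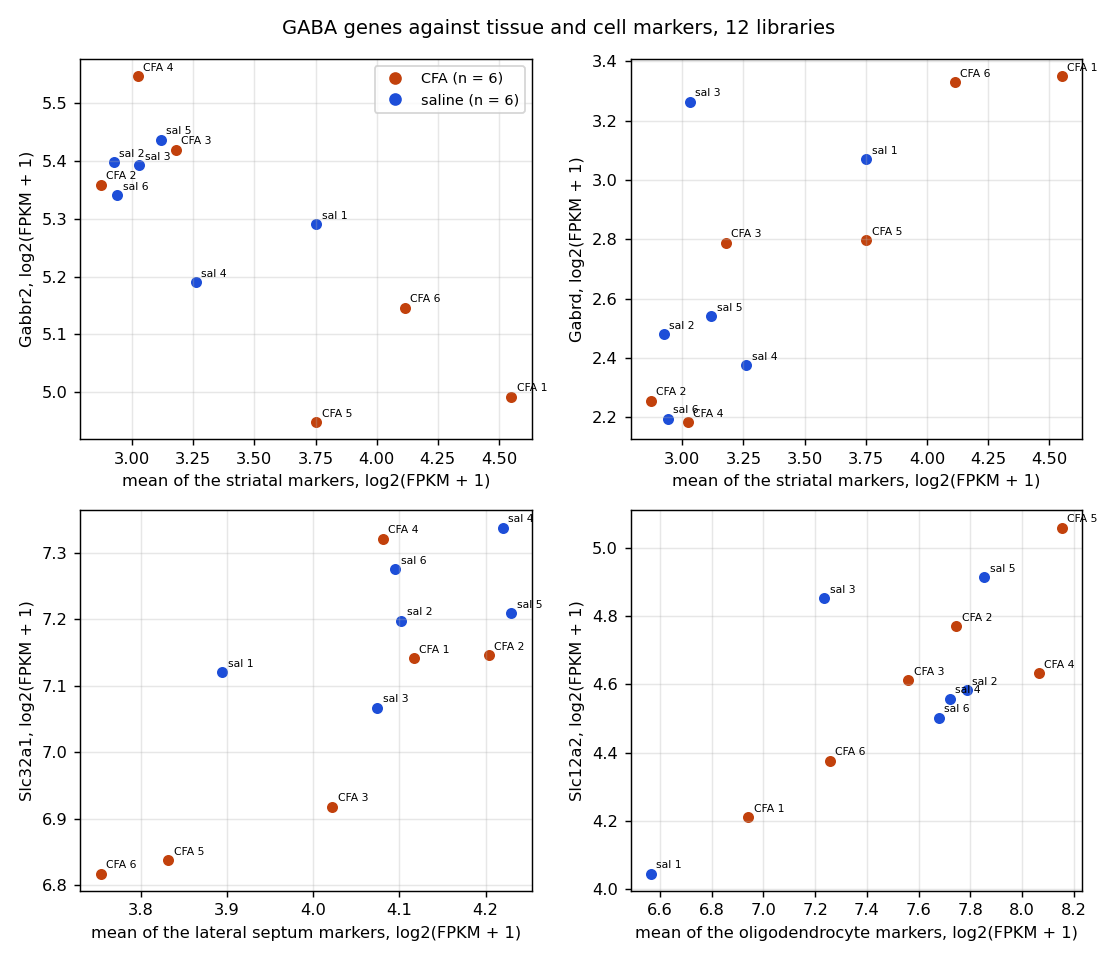
Log2(FPKM + 1) of Gabbr2 and Gabrd against the mean of the striatal markers, Slc32a1 against the lateral septum markers and Slc12a2 against the oligodendrocyte markers; each point is a library, CFA in orange and saline in blue. CFA 1 and CFA 6 lie at the right of both striatal panels, CFA 5 and CFA 6 at the left of the Slc32a1 panel and saline 1 at the left of the Slc12a2 panel.

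Of 53 further genes of the pathway (GABA-A receptor trafficking and anchoring, glutamine supply, kinases of the chloride transporters, interneuron markers), 47 were tested and 0 passed the adjusted threshold by limma; 34 had a log2 fold change below 0 and 13 above, with a median of -0.04, against 52.0% below 0 and a median of -0.00427 over all genes. At an unadjusted p under 0.05, 1 was higher and 2 were lower, shares no larger than the 3.11% and 4.56% of all genes tested. Kctd8, an auxiliary subunit of the GABA-B receptor, averaged 1.99 ± 0.207 FPKM in CFA and 1.54 ± 0.239 FPKM in saline libraries (SD, n = 6 each; log2 fold change 0.24, SE 0.07, limma adjusted p = 0.401). Gabarapl2, a relative of Gabarap, averaged 50.4 ± 1.44 FPKM in CFA and 53.1 ± 1.40 FPKM in saline libraries (-0.07, limma adjusted p = 0.639), and Zdhhc3, which palmitoylates gamma subunits, 5.73 ± 0.483 FPKM in CFA and 6.24 ± 0.132 FPKM in saline libraries (-0.11, limma adjusted p = 0.650). The most abundant were Glul, the astrocyte glutamine synthetase, with 491 ± 19.7 FPKM in CFA and 516 ± 21.2 FPKM in saline libraries, Gabarapl1 with 211 ± 6.98 FPKM in CFA and 222 ± 5.23 FPKM in saline libraries, and the neuropeptide gene Sst with 185 ± 9.65 FPKM in CFA and 192 ± 22.8 FPKM in saline libraries. Of the interneuron markers, Calb2 and Pvalb were picked after their values were seen, and Vip, Npy and Calb1 of the same list are not described. Calb2 averaged 87.6 ± 41.0 FPKM in CFA and 58.2 ± 15.7 FPKM in saline libraries (limma adjusted p = 0.710). Pvalb averaged 7.81 ± 2.09 FPKM in CFA and 9.85 ± 1.61 FPKM in saline libraries (limma adjusted p = 0.666).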

How the data were processed

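RNA of the lateral septum of WT mice (6 CFA, 6 saline libraries, day 3) was read by paired sequencing of 150 bases after library preparation from 0.2 µg of RNA, per the labels' protocols. Reads were aligned with HISAT2 2.0.5 to mm10, per the submitters' processing notes; how reads were counted, and whether by strand, is not given in the sources used here. As deposited by the authors, values are FPKM, 1 column per library, with the length of each gene. FPKM times gene length came in whole steps, so reads per gene were recovered (100% within 0.01 read of a whole number). They served only for depth and for voom. The divisor of the deposited FPKM was 0.990 to 1.03 times the recovered total, and precision is limited by that depth and by 6 libraries per group. A further 6 per-sample columns matched no sample of the series and stayed unused.

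The labels gave the groups, and table columns were matched to samples by group and number. Even the most alike libraries, saline 4 and 6, had a chi-square per degree of freedom of 8.42, which exceeds counting error, so none was merged as the same library deposited again; whether they come from separate animals is not given. The 13345 genes that reached 1 FPKM in 6 or more libraries were tested on log2(FPKM + 1) with limma 3.58.1 (R 4.3.3, eBayes with trend, two-sided, Benjamini-Hochberg over all genes tested, threshold 0.05). Count models were not used for these FPKM values, and the log2(FPKM + 1) scale understates changes of low genes. The code was tested on simulated data. Correlations used 100000 permutations and gene ratios an exact permutation test (Python 3.11.15, scipy 1.17.1, numpy 2.4.6, pandas 2.3.3, matplotlib 3.10.9). The 25 genes, the lists and the tests were chosen with earlier results of these data known. Genes named are the 25, of the pathway list those with unadjusted p under 0.05 and the 3 most abundant, and markers that a result touches. Calb2 and Pvalb fall outside this rule and were added after their values were seen. Alternatives covered the pseudocount, filter, scaling, voom, the replicate block, left-out libraries and marker lists or Xist as covariates. The relations with oligodendrocyte and excitatory markers and between pairs of the 25 genes, the excitatory covariate and the shares over all 14 subunit genes were added after seeing the data.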

Additional observations from a re-analysis of the deposited data

Results flagged for a closer look

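In each group of 6 libraries, the value of each of the 25 genes and of the 5 ratios was checked for a library that stood apart from the other 5. Of 60 groups checked, 2 were picked out, where chance alone would pick about 1 in 20, or 3. Gabra2 in saline 4 was 17.5 FPKM, with the other saline libraries between 9.46 and 11.0 FPKM; CFA libraries reached 27.8 FPKM. The log2 ratio of Gabbr1 to Gabbr2 in saline 4 was 1.78, the highest of the saline group, while CFA libraries ranged from 1.48 to 1.89. Whether the 2 values of saline 4 share a cause was not tested.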

How the results depend on the processing

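None of the 25 GABA genes passed the adjusted threshold under any of 25 other settings, and the lowest adjusted p was 0.182 (limma, Slc12a5 without CFA 4). Of 623 fold changes under these settings, 604 kept their sign and 19 did not, and 186 moved by more than 1.5 times. The number of genes called over the whole table, 4, became 2 with no filter, 13 with the striatal covariate, and 1 with the pan-neuronal covariate, with the Xist covariate and in the libraries with Xist only; leaving out 1 library gave 1 (without CFA 6 or saline 5) to 11 (without saline 3). A fit with the replicate block gave 1 gene, and 0 of the 25 GABA genes. Same-numbered libraries had correlations of -0.0118 to 0.159, and 3 of 6 CFA libraries went best with their own number. These values do not settle whether the numbers mark pairs. The main fit had no block because the number has no stated meaning.

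Signs reversed as follows, on the log2 scale; the causes were not tested. With the striatal covariate the values were -0.15 for Gabrd, 0.0118 for Gabre, 0.00554 for Gabbr2 and -0.0553 for Shisa7. With the pan-neuronal covariate they were -0.0691 for Slc12a2 and -0.0180 for Shisa7. With the Xist covariate (a marker of female tissue, above 1 FPKM in 5 CFA and 2 saline libraries) they were -0.00355 for Gabra5, -0.0397 for Slc12a2 and -0.00830 for Shisa7. In the libraries with Xist only they were -0.0527 for Gabra5, -0.14 for Slc12a2, and 0.0377 and 0.0658 for the ratios of Slc12a5 to Slc12a2 and Gabrb2 to Gabrb1. Without saline 3 and saline 5 they were -0.00408 for Gphn, 0.000992 for Gabarap and 0.0195 for Gad1 to Gad2. TPM scaling gave 0.0180 for Gabarap and moved the median of all genes to 0.03. Leaving out 1 library gave -0.19 to 0.00196 for Gabre, -0.0717 to 0.11 for Slc12a2, -0.00653 to 0.0455 for Gphn, -0.0340 to 0.0609 for Shisa7, -0.0508 to 0.0369 for Gad1 to Gad2 and -0.0278 to 0.21 for Gabrd to Gabra4. The filter at 5 FPKM removed Gabrq and Gabre, which then had no value. Over all 14 tested subunit genes the shares were smaller, with Gabra3 at 12.5% and Gabra2 at 6.05% in CFA libraries. The intervals of Gabra2, Gabrd, Gabre and Gabrq are the widest, so for these 4 genes moderate differences were not detectable here.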
